A study of Mus musculus with 12 samples.

Results

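Glypicans and syndecans are the main families of heparan sulfate proteoglycans at the cell surface, and their transcripts were measured in mouse embryo autopods (future hands and feet). The 9 genes Gpc1, Gpc2, Gpc3, Gpc4, Gpc6, Sdc1, Sdc2, Sdc3 and Sdc4 were chosen by name, 5 glypicans and 4 syndecans. Their members are all probe sets that the platform annotation gives to 1 of these genes and to no other gene, 23 of the 45265 probe sets of both array designs. The A array carried 17 of them, for 8 of the genes, and the B array 6, for 4 genes. A further B probe set annotated to both Gpc2 and Gal3st4 was left out. Every group was wild-type autopod at stage E12.5, days of embryonic life. There were 3 hindlimb samples (numbered 12, 14 and 26) and 3 forelimb samples (11, 13 and 25), each run on both designs (A and B) of the Affymetrix MOE430 set, 12 arrays in all. The limb of forelimb 11 on the A array rests on its title, because its tissue label names only the autopod. The sources used here give no strain, sex or pooling, so the p-values measure the spread between these samples, which may be technical.

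Both families carry long heparan sulfate chains on a core protein. Glypicans are held in the outer leaflet of the membrane by a glycosylphosphatidylinositol anchor, and syndecans span the membrane with a short cytoplasmic tail that binds PDZ proteins and the actin cytoskeleton. The chains bind fibroblast growth factors, hedgehogs, Wnts, bone morphogenetic proteins and chemokines, all of which act in the growing limb.

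Values are MAS5.0 signals brought to a 2% trimmed mean of 500 on each array. Differences are hindlimb minus forelimb, in units of log2(signal + 32), with n = 3 samples per limb, from limma over all probe sets of a design that reached a signal of 100 on 3 or more of 6 arrays (15338 A probe sets and 17145 B probe sets). That scale understates the difference of dim probe sets. Signals of different probe sets were not read as relative amounts of RNA, since each has its own response. They were ranked only to pick the brightest probe set of a gene. Sums over marker lists add such signals, so bright probe sets weigh most in them. The 2 designs hold the same numbered samples, so the B array adds no new samples. In whole tissue, fewer cells of a type and less RNA per cell cannot be told apart. Tbx5, which marks the forelimb, fitted the labels: it had signals of 29.3 to 173.8 in hindlimb and 1145 to 1381 in forelimb on one of its probe sets.

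Of the 23 member probe sets, 22 passed the signal filter and 0 passed a limma adjusted p of 0.05 (0 of 16 on the A array, 0 of 6 on the B array). Over all tested probe sets 0.0326% passed among those of the A array, and 0.0117% among those of the B array. At an unadjusted limma p under 0.05 there were 2 members on the A array, 1 of Gpc4 and 1 of Sdc2, where 5.54% of all probe sets were so called, and 1 on the B array, again of Gpc4, where 5.54% were. All 3 were lower in hindlimb, as were 3.69% of all A and 3.21% of all B probe sets at that p. The A count was 4 without hindlimb 12 and 1 without hindlimb 14, and the B count was 0 without hindlimb 26 or forelimb 25 and 2 without forelimb 13. On the A array the limbs did not overlap with hindlimb below on 3 of 16 members, against 6.10% of all probe sets, and with hindlimb above on 2, against 4.94%. On the B array they did so with hindlimb below on 1 of 6 members, against 6.14%, and with hindlimb above on 0, against 4.81%. These probe sets share genes and samples and are not independent of each other. Of the 16 A members, 11 differed in the negative direction (median -0.21), where 52.2% of all probe sets were negative with a median of -0.01. Of the 6 B members 3 did, with a median of -0.04, against 52.2% and -0.01.

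**Figure D1:**
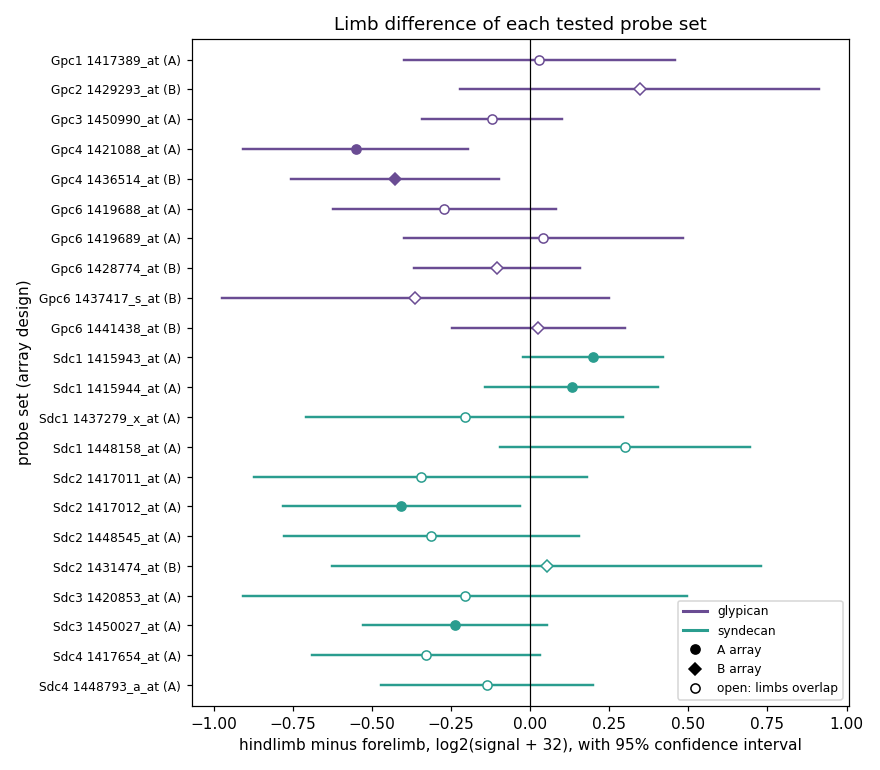
Limb difference of each of the 22 tested probe sets (x axis: hindlimb minus forelimb, in log2(signal + 32), n = 3 samples per limb; y axis: probe set with its array design). Points are limma estimates, bars 95% confidence intervals, and filled points mark probe sets whose limbs did not overlap; both Gpc4 intervals and that of Sdc2 1417012_at lie below 0, and 0 of the 22 passed after adjustment.

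Gpc4, known as K-glypican and studied in zebrafish for its part in Wnt-dependent convergent extension, was the member with the smallest p in both designs. On the A array (1421088_at) its signal was 826.5, 728.5 and 713.7 in hindlimb 12, 14 and 26, against 878.3, 1345 and 1188.5 in forelimb 11, 13 and 25. Every hindlimb sample lay below every forelimb sample, although forelimb 11 stood close to hindlimb 12. The mean was 756 ± 61.3 in hindlimb and 1137 ± 238 in forelimb (SD, n = 3 each). The difference was -0.55 ± 0.16 (SE; 95% interval -0.91 to -0.20), a hindlimb level 0.683 times that of forelimb, with a limma p of 0.00596 and an adjusted p of 0.611. Of all A probe sets 0.958% had a smaller p.

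On the B array the Gpc4 probe set 1436514_at had signals of 922, 747 and 723 in hindlimb 12, 14 and 26, against 1069.9, 1035 and 1131 in forelimb 11, 13 and 25. The limbs again did not overlap, and hindlimb 12 was again the highest hindlimb sample. The difference was -0.43 ± 0.15 (SE; 95% interval -0.76 to -0.10; limma p of 0.0155, adjusted p of 0.887), 0.743 times the forelimb level. With each of the 6 samples left out in turn, the Gpc4 difference ran between -0.72 and -0.42 for the A probe set and between -0.53 and -0.36 for the B probe set. The lowest limma adjusted p among all alternatives was 0.25, on the A array with array weights.

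Gpc4 and Gpc3 are neighbours on the X chromosome, with 0 annotated genes between them. Gpc3, whose loss causes the overgrowth of Simpson-Golabi-Behmel syndrome in humans and which restrains hedgehog signalling in mouse, had the signals 3505, 3986 and 4008 in hindlimb 12, 14 and 26, against 4433, 4105 and 3965 in forelimb 11, 13 and 25 (1450990_at, A array). Hindlimb 14 and 26 lay above the lowest forelimb sample, so the limbs overlapped. The difference was -0.12 ± 0.10 (SE; 95% interval -0.34 to 0.10; limma adjusted p = 0.966). Without hindlimb 12 it was -0.058, and without forelimb 11 it was -0.076. Whether the limb differences of the 2 genes differ was not tested. Embryo sex, which bears on X-linked genes, was not labelled. The brightest Xist probe set, the RNA of the inactive X, had 4908 to 7444 in hindlimb and 3983 to 10224 in forelimb, and Uty, a Y-linked gene, had 187.9 to 219.5 in hindlimb and 94.1 to 262.8 in forelimb (1422247_a_at). The limbs overlapped on both probe sets. In Gpc4, forelimb 13 was the highest sample on the A array but the lowest forelimb sample on the B array (1034.9). On these Uty and Xist probe sets it was the lowest and the highest of the 6. Hindlimb 14 also stood low on other Y-linked probe sets: Eif2s3y (1417210_at) had 87.8 in hindlimb 14 and 49.1 in forelimb 13, where the other 4 samples had 142 to 228.6. On the dimmer Xist probe sets 1427262_at (479.9) and 1427263_at (93.4), hindlimb 14 was the lowest of the 6. The part of sex in the Gpc4 result was not tested.

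The promoters of these neighbours are shown because Gpc4 is the member whose limbs parted on both designs and Gpc3 the one beside it whose limbs overlapped. Each is 300 bases of the coding (sense) strand from RefSeq (build GRCm38.p6), from 250 bases before the annotated start to 50 after it. Of the 9 genes, 6 matched an entry of the table. Capitals mark the GC box GGGCGG or its reverse complement CCGCCC, the letters known from Sp-family binding sites.
Gpc4 (chrX:52164874-52165173, minus strand): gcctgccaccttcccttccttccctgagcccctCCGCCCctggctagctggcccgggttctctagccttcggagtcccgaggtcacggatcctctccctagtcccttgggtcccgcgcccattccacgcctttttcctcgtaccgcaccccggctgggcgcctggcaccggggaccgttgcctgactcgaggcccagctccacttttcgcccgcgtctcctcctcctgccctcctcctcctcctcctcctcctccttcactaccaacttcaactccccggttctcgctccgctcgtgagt
Gpc3 (chrX:52613925-52614224, minus strand): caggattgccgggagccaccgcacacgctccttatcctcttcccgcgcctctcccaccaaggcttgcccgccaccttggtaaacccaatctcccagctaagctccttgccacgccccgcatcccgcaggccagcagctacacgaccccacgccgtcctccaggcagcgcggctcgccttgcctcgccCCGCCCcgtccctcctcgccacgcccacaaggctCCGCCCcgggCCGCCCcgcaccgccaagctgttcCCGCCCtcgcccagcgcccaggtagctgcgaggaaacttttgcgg
The Gpc4 window held 1 GC box and the Gpc3 window 4, counted on both strands with overlaps allowed, and 35.7% of the 32851 promoters in the table held at least 1. Neither held TATAAA, which 13.6% did. Their G and C content was 66.7% for Gpc4 and 70.7% for Gpc3, where the median promoter had 52.7%. These letters describe the windows and say nothing of which factor binds there.

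Gpc1, the first glypican described and abundant in nerve and skeletal tissue, showed no limb pattern. Its signals were 560 in hindlimb 12, 587 in hindlimb 14 and 449 in hindlimb 26, against 379, 545 and 667 in forelimb 11, 13 and 25, and forelimb held both the lowest and the highest sample. The difference was 0.03 ± 0.19 (SE; 95% interval -0.40 to 0.46; limma adjusted p = 0.997), and it became negative without hindlimb 12 (-0.010), hindlimb 14 (-0.043) or forelimb 11 (-0.180) and with array weights (-0.155).

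Gpc2, cerebroglycan of developing neurons, was measured on the B array alone. It had 578.5 in hindlimb 12, 886 in hindlimb 14 and 793 in hindlimb 26, against 495, 879 and 436 in forelimb 11, 13 and 25. Forelimb 13 reached the level of the hindlimb samples. The difference was 0.35 ± 0.26 (SE; 95% interval -0.22 to 0.91; limma adjusted p = 0.924). It was 0.638 without forelimb 13 (unadjusted limma p of 0.0157), 0.223 without hindlimb 14 and 0.158 without forelimb 25.

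Gpc6, mutated in human omodysplasia with short limbs, had 5 probe sets that did not tell one story. The A probe set 1419688_at had 323, 271 and 378.5 in hindlimb 12, 14 and 26, against 429, 338 and 423 in forelimb 11, 13 and 25, a difference of -0.27 ± 0.16 (limma adjusted p = 0.946). The dimmer A probe set 1419689_at, at 143.5 to 255.4 in hindlimb and 173.1 to 221.2 in forelimb, gave 0.04 ± 0.20 and turned negative without hindlimb 12 (-0.022), hindlimb 26 (-0.104) or forelimb 11 (-0.034). On the B array 1428774_at, at 1921 to 2169.7 in hindlimb and 2095 to 2313 in forelimb, gave -0.10 ± 0.12. The probe set 1437417_s_at gave -0.36 ± 0.28, where hindlimb 14 stood at 496 while hindlimb 12 and 26 had 1083 and 902, and without hindlimb 14 the value was -0.045. It was -0.585 without hindlimb 12, -0.591 without forelimb 13 and -0.236 without forelimb 25. The third, 1441438_at, at 2005 to 2183 in hindlimb and 1850.5 to 2244 in forelimb, gave 0.03 ± 0.12 and turned negative under quantile normalization (-0.012) and without hindlimb 12 (-0.011) or forelimb 25 (-0.044). The limbs overlapped on all 5, and 0 of 5 reached an unadjusted limma p of 0.05. The narrowest of these intervals, that of 1428774_at, ran from -0.37 to 0.16.

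**Figure D2:**
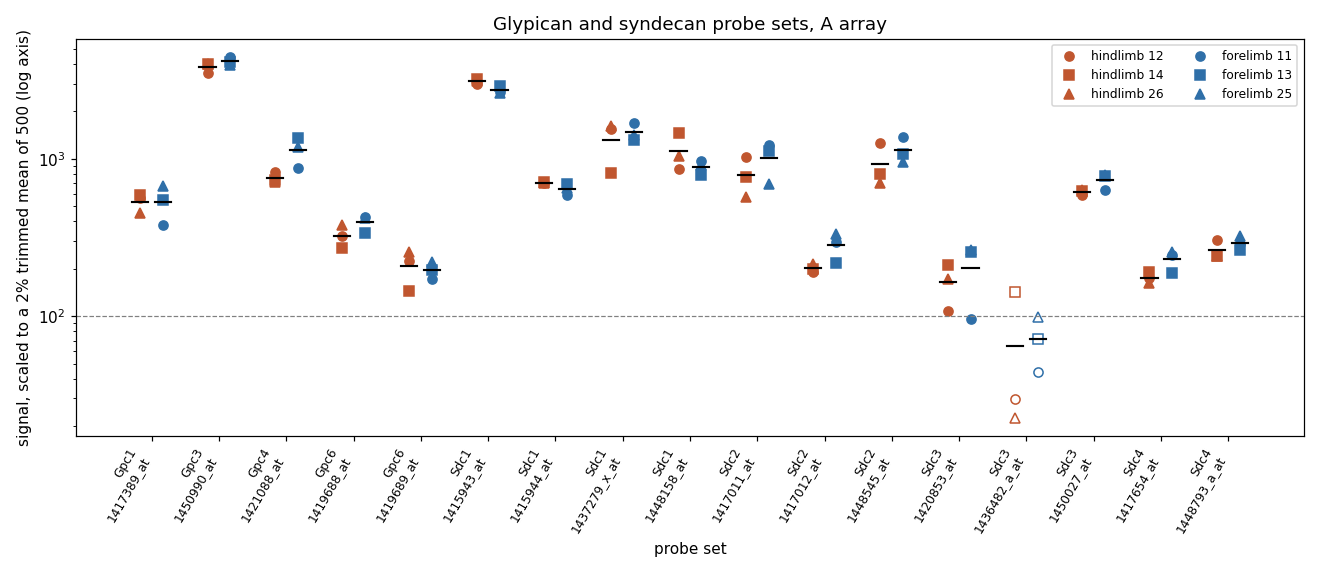
Signals of the 17 member probe sets of the A array in each sample (y axis: signal scaled to a 2% trimmed mean of 500, log axis; x axis: gene and probe set). Symbols are samples, black lines limb means of 3 samples, open symbols the probe set that failed the filter, and the dashed line the signal of 100 used there; Gpc4 hindlimb samples sit at 713.7 to 826.5, all below the forelimb samples.

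**Figure D3:**
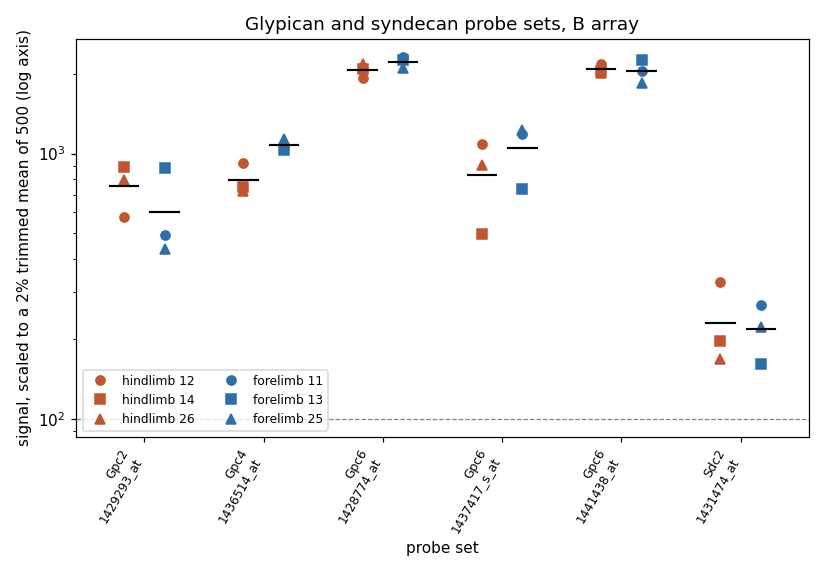
Signals of the 6 member probe sets of the B array in each sample, drawn in the same way (y axis: scaled signal, log axis; x axis: gene and probe set). Gpc4 hindlimb samples at 723 to 922 lie below all forelimb samples, and the limbs overlap on the other 5 probe sets.

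Among the syndecans, Sdc1, the syndecan of epithelia and plasma cells, had the only 2 member probe sets on which every hindlimb sample was above every forelimb sample. The brightest probe set, 1415943_at, had 2983, 3230 and 3135 in hindlimb 12, 14 and 26, against 2640, 2889 and 2608.5 in forelimb 11, 13 and 25. All hindlimb samples lay above all forelimb samples, by a small margin. The mean was 3116 ± 125 in hindlimb and 2713 ± 154 in forelimb (SD, n = 3 each), and the difference was 0.20 ± 0.10 (SE; 95% interval -0.02 to 0.42; limma p of 0.0738, adjusted p of 0.94).

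A second Sdc1 probe set, 1415944_at, was also higher in every hindlimb sample, with 702, 716 and 699.9 in hindlimb 12, 14 and 26, against 589, 687.5 and 653 in forelimb 11, 13 and 25. Its difference was 0.13 ± 0.12. The other 2 went apart in hindlimb 14: on 1448158_at that sample was the highest of 6, at 1452, and on 1437279_x_at it was the lowest of 6, at 812. The differences were 0.30 ± 0.18 and -0.21 ± 0.23, and without hindlimb 14 they were 0.101 and 0.104. Without hindlimb 12 the first was 0.467, with an unadjusted limma p of 0.0197. The suffix x marks a probe set with probes that may also bind unrelated transcripts. None of the 4 passed in limma (adjusted p of 0.94 to 0.978).

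Surface ectoderm, where Sdc1 is known to be made, was followed by 8 marker genes, all 8 tested on the A array, 4 with a negative and 4 with a positive difference. The median difference was 0.000. Their summed signal was 3354 to 3944 in hindlimb and 4055 to 5184 in forelimb, without overlap. None of the 8 was at 0. At an unadjusted limma p under 0.05 there were 3, all lower in hindlimb, where 3.69% of all A probe sets were so called. These were the keratins Krt15 (-1.38 ± 0.20, limma adjusted p = 0.059) and Krt5 (-0.40), and Krt14, whose 3 probe sets gave -0.83, -0.66 and 0.08. Krt8 had 0.28, Krt18 0.31, Trp63 0.09, Cdh1 0.01 and Epcam -0.01. On the B array 2 genes of the list were tested, Trp63 at -0.42 ± 0.23 and Epcam at -0.03 ± 0.33, with limbs that overlapped on both. The part of ectoderm in the Sdc1 values was not tested.

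Sdc2, known as fibroglycan and made by mesenchymal cells, had negative differences on its 3 A probe sets. On 1417012_at the signals were 191.5, 199.8 and 214.5 in hindlimb 12, 14 and 26, against 297, 217 and 331 in forelimb 11, 13 and 25. The hindlimb samples were tightly grouped and all lower, with forelimb 13 only just above them. The difference was -0.41 ± 0.17 (SE; 95% interval -0.78 to -0.03; limma p of 0.0354, adjusted p of 0.861), and the unadjusted p was above 0.05 without hindlimb 12 (0.084), hindlimb 14 (0.0614), forelimb 11 (0.0945) or forelimb 25 (0.153).

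The 2 brighter Sdc2 probe sets varied more between samples of one limb. On 1448545_at hindlimb 12, 14 and 26 had 1266, 795.5 and 705, against 1374, 1066 and 949 in forelimb 11, 13 and 25. Within each limb 12 and 11 were the highest and 26 and 25 the lowest. The same order held on 1417011_at, with 1029.8, 763 and 569.7 in hindlimb 12, 14 and 26, against 1217, 1127 and 688 in forelimb 11, 13 and 25. The differences were -0.31 ± 0.21 and -0.35 ± 0.24, with limbs that overlapped (limma adjusted p of 0.959 for both). Single samples moved both values. On 1448545_at the value was -0.557 without hindlimb 12 (unadjusted limma p of 0.00896), -0.148 without hindlimb 26 and -0.166 without forelimb 11. On 1417011_at it was -0.552 without hindlimb 12 and -0.593 without forelimb 25 (unadjusted limma p of 0.0411 and 0.0236), but -0.142 without hindlimb 26 and -0.195 without forelimb 11. The B probe set 1431474_at, at 168.5 to 326.4 in hindlimb and 161.4 to 268.5 in forelimb, gave 0.05 ± 0.31 and turned negative without hindlimb 12 (-0.196) or forelimb 13 (-0.119).

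Sdc3, the syndecan of nerve that has also been studied in chick limb buds, had 3 probe sets on the A array. On 1450027_at hindlimb 12, 14 and 26 had 592, 623.5 and 629, against 636, 774 and 789.8 in forelimb 11, 13 and 25. The limbs did not overlap, although hindlimb 26 and forelimb 11 stood close together. The difference was -0.24 ± 0.13 (SE; 95% interval -0.53 to 0.05; limma p of 0.0998, adjusted p of 0.94). The dimmer 1420853_at, at 107.7 to 211.1 in hindlimb and 95.3 to 261.4 in forelimb, gave -0.21 ± 0.32, at 0.019 without hindlimb 12, -0.017 without forelimb 13, 0.000 without forelimb 25 and -0.602 without forelimb 11 (unadjusted limma p of 0.0309). The probe set 1436482_a_at reached a signal of 100 on 1 array, hindlimb 14 (141), and was not tested.

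Sdc4, the syndecan of focal adhesions, had 173.9, 191.7 and 161.5 in hindlimb 12, 14 and 26, against 246, 189 and 256.5 in forelimb 11, 13 and 25 on 1417654_at. Forelimb 13 was within the hindlimb range. The difference was -0.33 ± 0.16 (SE; 95% interval -0.69 to 0.03; limma p of 0.0684, adjusted p of 0.94). The other probe set, 1448793_a_at, had 242.1 to 305.5 in hindlimb and 264.5 to 324.8 in forelimb, limbs that overlapped, and gave -0.14 ± 0.15.

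**Figure D4:**
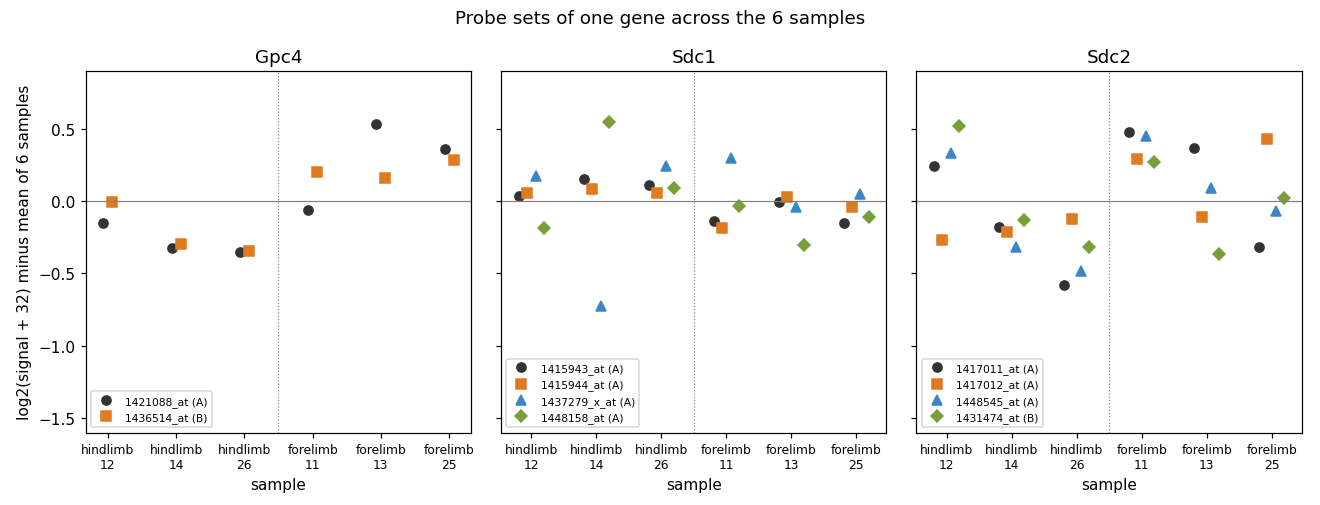
Agreement of probe sets of one gene across the 6 samples for Gpc4, Sdc1 and Sdc2 (x axis: sample, hindlimb left of the dotted line and forelimb right of it; y axis: log2(signal + 32) minus the mean of the 6 samples; each symbol is 1 probe set, array design in brackets). Both Gpc4 probe sets are lower in the hindlimb samples, and hindlimb 14 is highest on Sdc1 1448158_at and lowest on Sdc1 1437279_x_at. The Sdc2 probe sets scatter within each limb, except that the hindlimb samples of 1417012_at lie close together.

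The patterns most like the clearest glypican and syndecan probe sets on the A array were those of other kinds of genes. Over the 6 A arrays, Gpc4 1421088_at had a Pearson r of 0.988 with Tnfrsf11a, the receptor RANK, 0.981 with Pex14, a peroxisomal protein, and 0.980 with Grpr, a peptide receptor. For Sdc2 1417012_at these were Entpd5 (0.986), Pmpca (0.979) and Acadsb (0.977). With 6 arrays and 15338 probe sets searched, values this high are a description of these arrays, and the arrays share the limb difference.

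Of the genes that build and trim heparan sulfate, 0 passed in either direction. On the A array 9 of 12 genes of chain synthesis were tested, 4 negative and 5 positive with a median of 0.00. Ext1, a subunit of the chain polymerase, had 0.16 ± 0.12, and Extl2, a related transferase, had -0.26 ± 0.15 and 0.11 on its 2 probe sets. The B array held 4 tested genes of this list, with Ext2, the other polymerase subunit, at -0.31 ± 0.24 and 0.26 ± 0.60 on its 2 probe sets, and at 0.001 on the A array.

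Enzymes that modify the chains had 10 negative and 3 positive differences among 13 tested genes of the A array, with a median of -0.19, and 4 of each sign among 8 on the B array, with a median of 0.01. Hs3st3b1, a 3-O-sulfotransferase, had 128.4 to 145.1 in hindlimb and 187.5 to 239.6 in forelimb on 1421332_at (-0.52 ± 0.16, limma adjusted p = 0.632). It had -0.19 on a second A probe set, and -0.48 and -0.02 on the B array. Papss2, which makes the sulfate donor and is mutated in brachymorphic mice, had -0.38, -0.37 and -0.32 on its 3 probe sets (limma adjusted p = 0.74 for the first). Sulf1, an extracellular enzyme that removes 6-O-sulfate from the chains, went the other way on the B array. Its signals were 6247 to 7477 in hindlimb and 4629 to 5275 in forelimb on 1436319_at, a difference of 0.48 ± 0.12 (limma p of 0.00189, adjusted p of 0.747). The second Sulf1 probe set gave 0.26 ± 0.15 with limbs that overlapped.

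Other heparan sulfate proteoglycans were split, with 2 of 4 tested genes negative on the A array (median -0.12). Perlecan, Hspg2, had -0.32 ± 0.15 and 0.03 on 2 probe sets, and agrin, Agrn, had -0.31 ± 0.18. Tgfbr3, betaglycan, had 0.48 ± 0.20 on the B array (limma adjusted p = 0.894) and 0.07 on the A array. Gpc5, on the B array, did not pass the signal filter.

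Cytoplasmic partners of syndecans had 5 of 7 negative on the A array (median -0.11) and 3 of 3 on the B array. Cask, a scaffold that binds the syndecan tail, had -0.40 ± 0.17, -0.29 and -0.08 on the A array, with -0.23 for its B probe set. The GTPase Dnm2 had -0.31 ± 0.14 on its probe set of smallest p and -0.41 to 0.10 on 5 others. Sdcbp, syntenin, had -0.55 ± 0.26 on the B array, but 0.16 and -0.03 on the A array.

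Genes of shedding and release had 6 of 9 negative on the A array (median -0.03). Timp3, an inhibitor of the proteases that shed syndecans, had 4 probe sets between -0.81 and -0.42. On the one of smallest p, 1419089_at, the signals were 301.5 to 538.3 in hindlimb and 687.4 to 876.3 in forelimb (-0.81 ± 0.20, limma adjusted p = 0.456). Mmp2, a gelatinase, had -0.37 ± 0.13 and -0.27 ± 0.12 with limbs that did not overlap on either probe set. Notum, described earlier as releasing glypicans and later found to act on Wnts directly, had 0.01 ± 0.15. Pcsk5 had 0.35 ± 0.20 on the B array.

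The list of ligands and receptors was drawn up around heparan sulfate binding. It also holds Ptch1, Smo and Igf2, for which such binding is not claimed here. On the A array 15 of 16 were negative, with a median of -0.24, and on the B array 7 of 10, with a median of -0.05. Fgf2, Fgf8, Fgf10, Shh, Met and Slit3 did not pass the signal filter on the A array. Of the 16 tested, 7 had an unadjusted limma p under 0.05, all lower in hindlimb, where 3.69% of all A probe sets were so called. After adjustment 0 passed. The list was chosen with earlier results of these data known, so these shares are not a test of it. On the B array 4 of 10 had such a p, where 5.54% of all probe sets did, with Slit2 and Tnc (-1.07) lower in hindlimb and Hgf and Met (0.57) higher. The chemokine Cxcl12 had -0.52 ± 0.13 (limma adjusted p = 0.456), but -0.15 on a second A probe set and -0.17 on the B array. The guidance factor Slit2 had -0.69 ± 0.18 and -0.63 ± 0.17 on the A array, with -0.59 ± 0.22 for its B probe set (limma adjusted p = 0.496, 0.584 and 0.894). Hgf had 0.86 ± 0.28 on the B array, with 306.4 to 602.1 in hindlimb and 170.7 to 292.8 in forelimb, and 0.04 and 0.29 on the A array. Shh had 1.03 ± 0.48 on the B array (limma p of 0.0581), with limbs that overlapped.

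**Figure D5:**
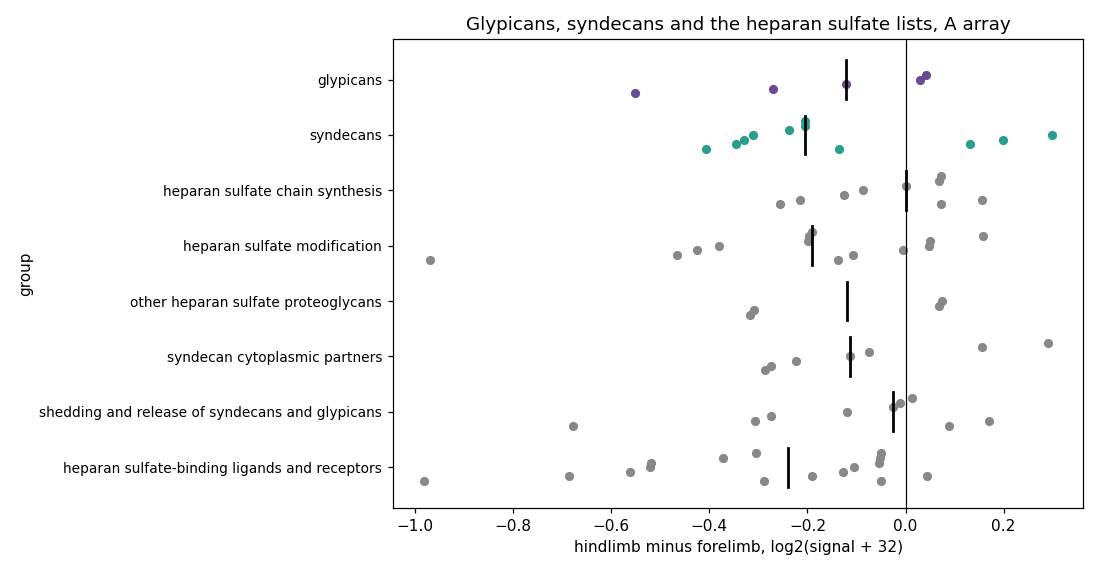
Limb differences on the A array (x axis: hindlimb minus forelimb, in log2(signal + 32); y axis: group). Points are tested probe sets of the glypicans and syndecans and, in the 6 lists, the brightest probe set of each tested gene, black lines are medians, and the ligands and receptors have a median of -0.24 with 15 of 16 below 0.

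Markers of the tissues in the autopod did not all move one way between the limbs. Each sum adds the brightest probe set of every listed gene on the array, also where that probe set failed the signal filter. Brackets give the genes tested out of those on the array. The sums thus include the untested probe sets of Matn1 (cartilage), Myf5 and Pax3 (muscle), Tie1 (endothelium), and Fcer1g and Aif1 (macrophage). On the A array the summed signal of the cartilage list (8 of 9 genes tested) was 9005 to 10640 in hindlimb and 10050 to 11440 in forelimb. Of these 8, 3 had an unadjusted limma p under 0.05, all lower in hindlimb like Gpc4 and Sdc2 1417012_at, where 3.69% of all A probe sets were so called. They were Matn4 (-0.79), Acan (-0.72) and Col2a1 (-0.61). Their limbs also did not overlap, as on 6.10% of all A probe sets with hindlimb below. These markers were added after values were seen, so the shares are not a test of them. By their brightest probe sets, 4 of the 8 were negative and 4 positive, with a median of -0.13. Col9a1, whose signal weighed most in the sum, had 0.19. On the B array 1 of 4 tested cartilage genes was negative and 3 were positive. For muscle (4 of 6) the summed signal on the A array was 924.3 to 1246 in hindlimb and 1205 to 1610 in forelimb. Endothelium (5 of 6) had 1442 to 1626 in hindlimb and 1632 to 1680 in forelimb, with no overlap, and the erythroid list (4 of 4 on the array) had 31420 to 34870 in hindlimb and 28000 to 30750 in forelimb, with no overlap the other way. Macrophage genes (4 of 6) had 1363 to 1474 in hindlimb and 1422 to 1511 in forelimb, and nerve genes (5 of 5) had 1035 to 1325 in hindlimb and 1276 to 1352 in forelimb. The autopod mesenchyme list (7 of 7) overlapped, at 10170 to 12860 in hindlimb and 11590 to 12800 in forelimb. As a sign of RNA quality, the 3' over 5' Gapdh signal (log2) on the A array was -0.299 to -0.263 in hindlimb and -0.239 to -0.078 in forelimb (two-sided exact permutation p = 0.1, the smallest that 3 against 3 can give), and on the B array it was -0.173 to -0.113 in hindlimb and -0.253 to -0.073 in forelimb (exact permutation p = 0.8). The same ratio for beta-actin on the A array was 0.222 to 0.270 in hindlimb and 0.118 to 0.261 in forelimb (exact permutation p = 0.3). The part of these tissues and of RNA quality in the Gpc4, Sdc1 and Sdc2 values was not tested.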

How the data were processed

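Deposited values were intensities that the authors made with MAS5.0, on a linear scale, per the labels (1 label, of forelimb 11 on the A array, names no software). Their 2% trimmed mean was 350.1 on each A array and 70.0 on each B array, so arrays of a design had been brought to one level; the sources used here give no further settings. Gene symbols came from the platform annotation, updated by gene identifier with RefSeq of GRCm38.p6. The A design had 20393 probe sets with a single symbol, 691 with several and 1606 unnamed; the B design had 14674, 245 and 7656.

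Each array was rescaled to a trimmed mean of 500, by 1.43 (A) or 7.14 (B), so the filter is laxer for B. Each design was fitted whole in limma 3.58.1 under R 4.3.3, using lmFit and trended eBayes, with two-sided p-values adjusted by Benjamini-Hochberg over all its tested probe sets. Precision rests on 3 arrays per limb, with a median SE of 0.16 (A) and 0.23 (B). The fitting code was tested on simulated data. Members, lists and rules were chosen with earlier results of these data known. The rule named all 9 members and, from each list, those that passed. Where none did, it named the lowest 2 by p in the A design and 1 in the B design. The ectoderm and cartilage markers, Tnc, Met, Shh, Notum, Gpc5, Xist, Uty and Eif2s3y were added after values were seen. For the glypican and the syndecan probe set of smallest p on the A array it named the 3 genes of highest Pearson r. The alternatives changed the pseudocount (1 or 100), the filter (none, or 200), the normalization (quantile, or as deposited), the trend, array weights, a replicate block of consecutive numbers, the probe sets (one per gene) and the samples (each left out). Python 3.11.15 with matplotlib 3.10.9 drew the figures.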

Additional observations from a re-analysis of the deposited data

How the results depend on the processing

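No member passed an adjusted p of 0.05 in limma in any of the alternatives run; the lowest adjusted p was 0.25. Of 340 refits of single member probe sets 325 kept their sign and 15 turned it, 13 of them with a sample left out. The other 2 were Gpc1 with array weights (-0.155) and Gpc6 1441438_at under quantile normalization (-0.012). With samples left out, the differences that turned ran from -0.180 to 0.203 for Gpc1, from -0.104 to 0.252 for Gpc6 1419689_at, from -0.044 to 0.093 for Gpc6 1441438_at, from -0.380 to 0.104 for Sdc1 1437279_x_at, from -0.196 to 0.223 for Sdc2 1431474_at and from -0.602 to 0.019 for Sdc3 1420853_at. Members at an unadjusted p under 0.05 numbered 2 on the A array, but 4 with array weights or the replicate block. They numbered 1 with one probe set per gene, which tests fewer, and 3 without the trend. Leaving out the trend added Sdc4 1417654_at (unadjusted limma p of 0.0488). The block added Sdc2 1417011_at (unadjusted p of 0.0178) and 1448545_at (0.0257), and array weights added Sdc3 1450027_at (0.046) and Sdc4 1417654_at (0.0323). They numbered 1 on the B array, but 2 with the replicate block, which added Gpc6 1437417_s_at (0.0403). With samples left out these counts ran from 1 to 4 and from 0 to 2; the cause was not tested. The sources used here do not say whether consecutive numbers are pairs, and the main fit did not pair them. On the A array deviations of 12 and 11, 14 and 13, and 26 and 25 correlated at 0.208, 0.108 and 0.076, each hindlimb sample best with its own neighbour. On the B array these were 0.002, 0.048 and 0.039. There hindlimb 14 and 26 were best with their own neighbour, and hindlimb 12 with forelimb 13 (0.013). Over whole tables the 5 calls of the A array became 1 without the filter, 14 with array weights, 8 with the replicate block and 3 to 9 with a sample left out. The 2 of the B array became 1 without the filter, 0 without the trend (871 at an unadjusted p under 0.05), 4 with the replicate block and 1 to 4 with a sample left out. At an unadjusted p under 0.05 one probe set per gene gave 563 in place of 850 on the A array and 467 in place of 949 on the B array, where values as deposited gave 329. Sdc3 1420853_at, with signals near 100 on some arrays, had the largest SE of the A members (0.318, where their median was 0.166). Dim members did not all have wide errors: Sdc2 1417012_at had 0.169 and the brighter Sdc2 1417011_at 0.239.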
